A study of Homo sapiens with 6 samples.

Results

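Transcripts of STAT3, STAT5A, STAT5B, of the PIM kinases PIM1, PIM2 and PIM3, and of the feedback inhibitors SOCS1, SOCS2, SOCS3 and CISH were examined in KG1a cells given 7l and in control cells. The members were all probes that the platform's gene table assigns to exactly these 10 symbols, which gave 14 probes of 10 genes, out of 47322 probes and 20046 named genes on the array. KG1a is a human cell line from acute myeloid leukaemia that resembles early progenitors, bears CD34 and is known to carry a fusion of FGFR1OP2 with the kinase part of FGFR1. The treated cells had been exposed to 7l, an agent known here by this code name alone, at 2 µM for 24 h (3 arrays). The control cells (3 arrays) were of the same line, and the sources used here do not state their vehicle or time in culture. The labels number the arrays 1 to 3 within each group by title, whereas their description field calls all control arrays replicate 1 and all 7l arrays replicate 2. If that field marks a shared batch, batch and treatment cannot be told apart. Nor do the labels say whether the arrays of a group came from separate cultures, so each p-value measures the spread between these arrays, which may be technical.

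Cytokine receptors and some oncogenic tyrosine kinases activate STAT proteins by phosphorylation, after which the STATs enter the nucleus and switch on genes. Among the best known targets of STAT5 in blood cells are the serine/threonine kinase genes PIM1 and PIM2, which favour survival and growth, and CISH and SOCS2. Together with SOCS1 and SOCS3, CISH and SOCS2 encode SH2-domain proteins that bind receptors or JAK kinases and damp the signal in a negative feedback loop. Transcript levels do not measure STAT phosphorylation, which these arrays do not record.

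None of the members passed the test between 7l-treated and control cells. The member nearest to it was PIM1, whose signal was 1.35-fold higher with 7l, while its relative PIM2 was 1.27-fold lower and SOCS2 was 1.41-fold lower. Each of these 3 genes had its 7l arrays wholly on 1 side of its control arrays, as did 28.9% of all genes tested. The adjusted p-values of PIM1, PIM2 and SOCS2 were 0.0661, 0.152 and 0.163 (limma, Benjamini-Hochberg over all genes tested). The 3 STAT genes, SOCS1, SOCS3 and CISH had overlapping groups, and PIM3 gave no signal above the lowest value on any array. A limma prior that follows intensity and is robust to outlying genes, run as an alternative, called PIM1 higher and PIM2 and SOCS2 lower. That prior called 7.21% of all genes tested higher and 6.59% lower, against 1.22% and 1.16% in the fit reported.

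The values are probe intensities on a linear scale, which were compared as log2 with values of at least 1. Arrays of a group correlated at 0.993 to 0.995 across the probes whose mean log2 intensity exceeded 6, and arrays of different groups at 0.982 to 0.983. The level of unexpressed genes, estimated from 564 probes of olfactory receptor, taste receptor and keratin-associated protein genes, was log2 2.46. CD34 lay at log2 11.14 to 11.33 on 7l arrays and 11.44 to 11.48 on control arrays. Of further markers of immature myeloid cells, SPN lay at 8.56 to 8.82 with 7l and 8.58 to 8.70 in control cells, ANPEP at 8.56 to 8.68 with 7l and 8.28 to 8.52 in control cells and PTPRC at 5.41 to 5.56 with 7l and 5.42 to 6.04 in control cells, whereas MPO, KIT and PROM1 were under the intensity filter, set at the median of all probe means. The first marker of 4 other cell types was dim, with EPCAM of epithelial cells at log2 1.43 to 3.22 on 7l arrays and 2.45 to 3.27 on control arrays, CD14 of monocytes at 3.48 to 4.25 on 7l arrays and 2.79 to 3.57 on control arrays, COL1A1 of fibroblasts at 2.81 to 3.35 on 7l arrays and 3.20 to 3.85 on control arrays, and HBB of erythroid cells under the filter. Of the T and NK markers CD3D was bright, at log2 10.78 to 11.03 on 7l arrays and 11.59 to 11.62 on control arrays, and fell (limma adjusted p = 0.0396), while NKG7, at 8.47 to 8.53 on 7l arrays and 7.82 to 8.17 on control arrays, and CD2 did not pass and 3 lay under the intensity filter. The groups of NKG7 did not overlap and its difference was 0.47, opposite in sign to that of CD3D. The summed intensity of the 6 markers, most of it from CD3D, was 2136 to 2466 on 7l arrays and 3317 to 3450 on control arrays. The part of these markers in the values below was not tested. In such bulk samples, fewer cells of a kind and less RNA per cell cannot be told apart.

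In total 12334 genes passed the intensity filter. Of these, 2.38% were called at an adjusted p under 0.05, 1.22% higher and 1.16% lower with 7l. Of the 10 members 9 were tested, and 0 were called in limma, with 3 at an unadjusted p under 0.05, as were 20.5% of all genes tested. The 3 members whose groups did not overlap stand beside 28.9% of all genes tested. Over the 9 members the median log2 change was 0.04, beside 0.01 over all genes, and the median size of a change was 0.22, beside 0.21. By these counts and sizes the members lay close to the genes at large.

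**Figure D1:**
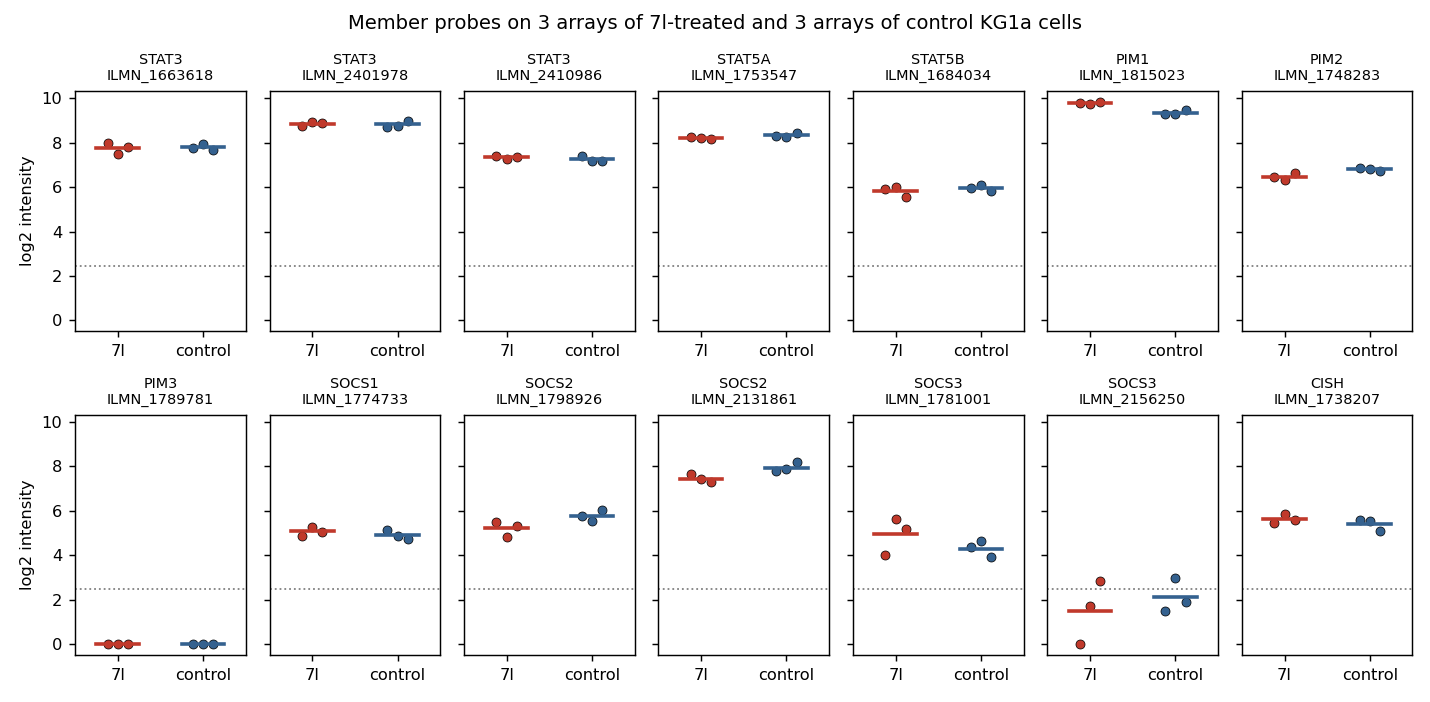
Log2 intensity (y axis) of each of the 14 member probes on the 3 arrays of 7l-treated cells (red, left) and the 3 arrays of control cells (blue, right). Horizontal bars are group means and the dotted line is the estimated level of unexpressed genes, log2 2.46. PIM1 lies higher and PIM2 and both SOCS2 probes lie lower on every 7l array, PIM3 sits at 0 throughout, and the remaining probes overlap.

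The STAT genes are neighbours on chromosome 17 of GRCh38.p14, where RefSeq places STAT5B at 42199177 to 42288370, STAT5A at 42287439 to 42311943 and STAT3 at 42313324 to 42388442. STAT3, the mediator of IL-6 family signals, has 3 probes. Its brightest, ILMN_2401978, read 436, 494 and 468 on the 7l arrays and 423, 431 and 511 on the control arrays. The ranges overlapped and the log2 change was 0.04 ± 0.11 (SE, limma adjusted p = 0.878), with a 95% interval of -0.23 to 0.31. The other 2 STAT3 probes had log2 changes of -0.04 (ILMN_1663618) and 0.09 (ILMN_2410986), so all 3 stayed within 0.1 of no change, and the direction of each is not set by these data.

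STAT5A and STAT5B encode closely related factors, both used downstream of many haematopoietic cytokine receptors. STAT5A read 309, 297 and 284 in 7l-treated cells, against 315, 306 and 352 in control cells. Here 7l replicate 1 lay above control replicate 2, so the groups overlapped, and the log2 change was -0.13 ± 0.09 (limma adjusted p = 0.460), or -0.069 without control replicate 3. STAT5B, with a dimmer probe, read 60.0, 64.5 and 47.7 with 7l and 62.1, 67.6 and 56.3 in control cells. The groups overlapped, with the lowest of the 6 values on 7l replicate 3, and its log2 change was -0.12 ± 0.15 (adjusted p = 0.699). The 95% interval was -0.35 to 0.09 for STAT5A and -0.49 to 0.25 for STAT5B.

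The PIM family encodes constitutively active kinases whose output follows their amount. As known STAT5 targets, PIM1 and PIM2 are a common transcript readout of STAT signalling, though STAT activity was not measured here. PIM1 read 883, 849 and 918 on the 7l arrays, against 633, 633 and 704 on the control arrays. The lowest 7l array thus exceeded the highest control array. Means were log2 9.79 ± 0.06 with 7l and 9.36 ± 0.09 in control cells (SD, n = 3 each), and the change of 0.43 ± 0.08 had a 95% interval of 0.23 to 0.63 (limma adjusted p = 0.0661). It ranked 474 by p among the 12334 genes.

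PIM2, which is known to share many substrates with PIM1, had an estimate of the opposite sign. It read 86.5, 79.8 and 98.3 with 7l and 117, 111 and 108 in control cells. All 7l arrays lay under all control arrays, with means of log2 6.46 ± 0.15 with 7l and 6.80 ± 0.06 in control cells (SD, n = 3 each). The change was -0.35 ± 0.10, with a 95% interval of -0.60 to -0.09 (limma adjusted p = 0.152). The changes of PIM1 and PIM2 thus differed by 0.78 on the log2 scale. This difference was taken after both values were seen and is a description.

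PIM3, the third family member, stood at the lowest value of 1 on all 6 arrays. Its single probe gave no measurement in either group, and it was the 1 member that did not enter the test.

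The calls on PIM1, PIM2 and SOCS2 depended on the processing. With the trended and robust prior, which called 7.21% of all genes higher and 6.59% lower, PIM1 was called higher (adjusted p = 2.8e-05), and PIM2 (adjusted p = 0.0396) and SOCS2 (adjusted p = 0.000618) were called lower. PIM1 also passed with 16 added to every intensity (0.42 ± 0.09, adjusted p = 0.0311, where 5.95% of genes were called, 3.15% higher) and when genes under the unexpressed level were left out (adjusted p = 0.0478, with 4.36% of genes called, 2.28% higher). Its change stayed between 0.40 and 0.48 under all 16 alternatives run, that of PIM2 between -0.43 and -0.28 and that of SOCS2 between -0.59 and -0.38.

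**Figure D2:**
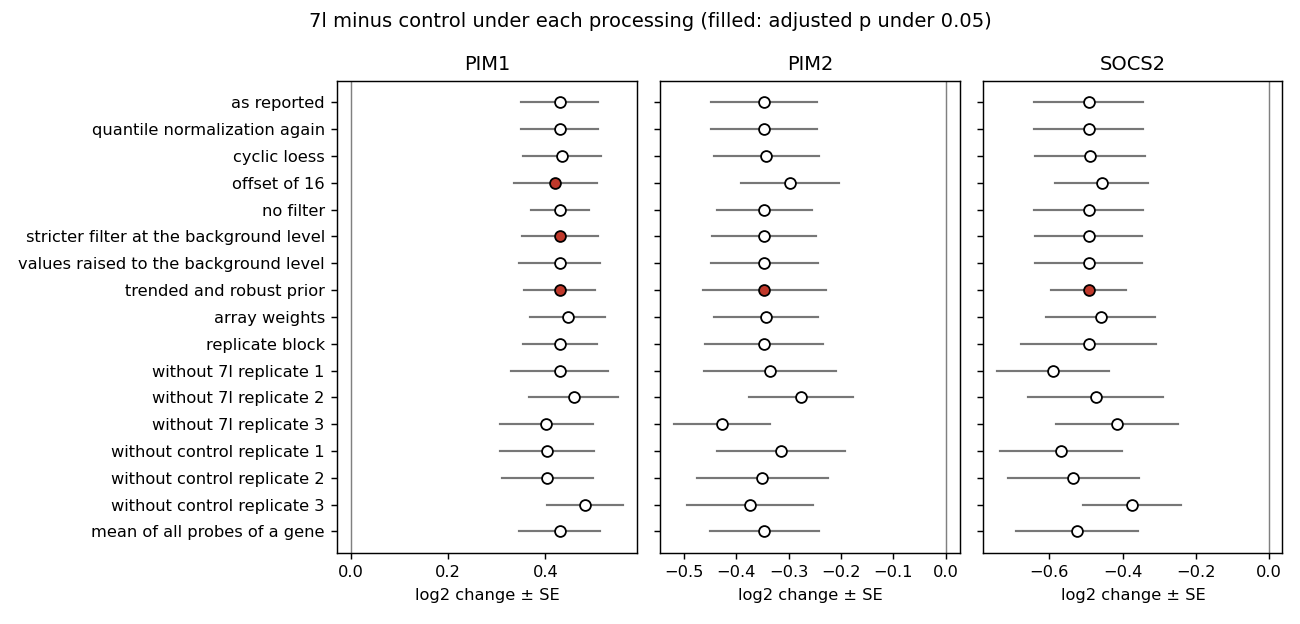
Log2 change, 7l minus control (x axis, with SE as bars), of PIM1, PIM2 and SOCS2 under the processing reported and each alternative (rows). Filled points passed an adjusted p under 0.05. Each gene keeps its direction in every row, PIM1 passes in 3 alternatives and PIM2 and SOCS2 in the trended and robust prior alone.

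By the rule for genes of like pattern, the 3 tested genes nearest to PIM1 over the 6 arrays, each gene centred on its own mean, were CKAP2L, which encodes a spindle-associated protein, MRPL43, a mitochondrial ribosomal protein gene, and SYT11, a synaptotagmin gene. Their Euclidean distances from PIM1 were 0.06, 0.08 and 0.08 on the log2 scale. CKAP2L measured 0.44 ± 0.08, MRPL43 0.41 ± 0.08 and SYT11 0.44 ± 0.08, with limma adjusted p-values of 0.0629, 0.0706 and 0.0652. Being picked for their nearness to PIM1, these genes have changes like its own by construction.

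None of the 4 feedback inhibitors passed the test, and their estimates had both signs. SOCS2, a known STAT5 target that restrains growth hormone and cytokine signals, has 2 probes, which went the same way. Probe ILMN_2131861 read 201, 171 and 158 with 7l, against 222, 233 and 291 in control cells. Every 7l array was lower than every control array, and the means were log2 7.45 ± 0.18 with 7l and 7.95 ± 0.21 in control cells (SD, n = 3 each). The change was -0.49 ± 0.15, with a 95% interval of -0.87 to -0.11 (limma adjusted p = 0.163). The dimmer probe ILMN_1798926 read 45.6, 28.7 and 39.5 with 7l and 54.7, 46.5 and 64.7 in control cells. It too had no overlap, with a log2 change of -0.56 ± 0.22, and did not pass in the fit over all probes (adjusted p = 0.322).

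CISH, the founding member of the family and a textbook STAT5 target, read 43.3, 57.1 and 47.7 with 7l, against 47.6, 46.5 and 33.9 in control cells. The groups overlapped, since 7l replicate 1 lay under control replicates 1 and 2. The log2 change was 0.22 ± 0.18, with a 95% interval of -0.24 to 0.68 (limma adjusted p = 0.561). Without control replicate 3 it was 0.059 and without 7l replicate 2 it was 0.11. SOCS2 and CISH thus gave estimates of opposite sign, and for CISH neither direction is set by these arrays.

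SOCS1, a direct inhibitor of JAK kinases that is strongly induced by interferon, read 29.3, 39.2 and 33.2 with 7l and 34.9, 29.3 and 27.0 in control cells. The arrays interleaved, and the log2 change was 0.16 ± 0.16 (limma adjusted p = 0.629), or 0.047 without 7l replicate 2 and 0.075 without control replicate 3. SOCS3, which restrains STAT3 downstream of the IL-6 receptor, was the most variable member. Its brighter probe, ILMN_1781001, read 16.1, 49.2 and 36.3 with 7l and 20.8, 24.7 and 14.9 in control cells. Replicates 2 and 3 of 7l lay above all control arrays and 7l replicate 1 below 2 of them. The log2 change of 0.64 ± 0.46 had a 95% interval of -0.54 to 1.81 (adjusted p = 0.50). Without 7l replicate 1 it was 1.10, without 7l replicate 2 it was 0.29, with both SOCS3 probes averaged it was 0.012, and it did not pass in any alternative. The other SOCS3 probe, ILMN_2156250, was above the unexpressed level on 1 array of each group and read -0.61 ± 0.82, so the 2 probes do not share a sign.

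**Figure D3:**
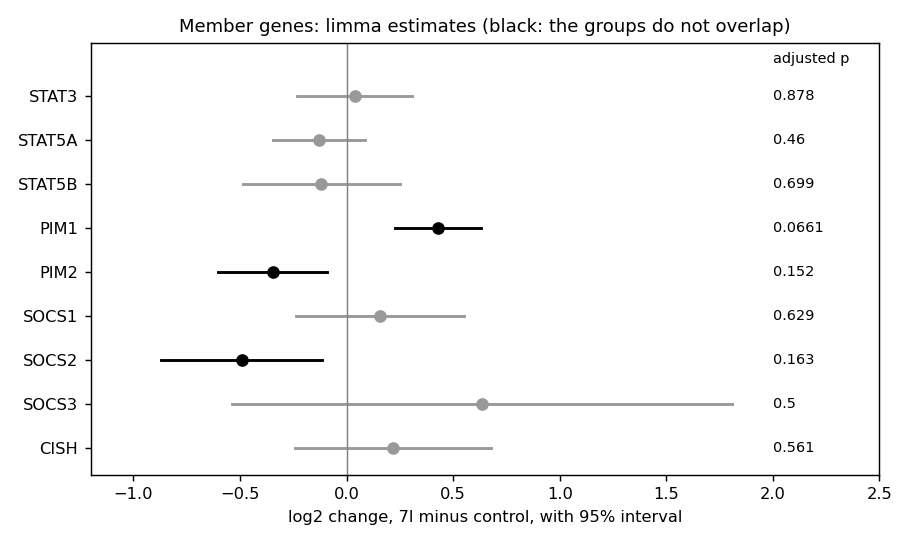
Log2 change, 7l minus control (x axis), of the 9 tested members with the limma 95% interval as a bar and the adjusted p at the right. Black marks PIM1, PIM2 and SOCS2, whose groups do not overlap. The intervals of these 3 exclude 0 before adjustment, that of SOCS3 is the widest of the 9, and no adjusted p is under 0.05.

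Over all probes above the filter, 0 of 13 member probes were called in limma, where 0.566% of all probes were. At an unadjusted p under 0.05 were 3 of the 13, and the share of all probes at that level was not counted. The groups did not overlap for 4 of the 13, PIM1, PIM2 and the SOCS2 pair, beside 24.9% of all probes. With the trended and robust prior, which called 9.40% of probes, PIM1 and both SOCS2 probes passed (adjusted p = 5.67e-05, 0.000896 and 0.0457), and PIM2 did not (adjusted p = 0.0587).

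Promoter sequences are shown for CISH, which is dense in STAT-type motifs, and for the paralogues PIM1 and PIM2. Activated STAT dimers favour the palindrome TTCNNNGAA, which is its own reverse complement, so that a search of either strand finds the same matches. RefSeq promoter sequences (GRCh38.p14) were found for 9 of the 10 members, in 12 windows, and not for SOCS2. The only STAT5B window, at 42276392 to 42276641 on the minus strand, lies inside the gene span given above. The bases before the outer 5′ end of STAT5B were therefore not searched as its promoter. In the 250 bases before the transcript start, 1 member held the palindrome, CISH, with 4 matches. These were TTCCTGGAA, TTCTTGGAA, TTCTAGGAA and TTCCGGGAA, starting 241, 230, 129 and 112 bases before the start. Of 35116 windows of the same length, 6.57% held at least 1 match and 5 windows held 4 or more. The same motif with 1 further base in its spacer, found in 5.38% of windows, matched 1 STAT5A window. The sequences run 5′ to 3′ on the gene's strand, with matches to TTCNNNGAA in capitals, and cover chr3:50611775-50612024 (minus strand) for CISH, chr6:37169902-37170151 (plus strand) for PIM1 and chrX:48919025-48919274 (minus strand) for PIM2.
CISH: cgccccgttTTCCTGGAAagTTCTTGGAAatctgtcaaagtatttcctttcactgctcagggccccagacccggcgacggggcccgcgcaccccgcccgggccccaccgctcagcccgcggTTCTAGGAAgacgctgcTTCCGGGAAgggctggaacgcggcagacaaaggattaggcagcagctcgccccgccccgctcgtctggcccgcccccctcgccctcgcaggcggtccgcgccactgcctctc
PIM1: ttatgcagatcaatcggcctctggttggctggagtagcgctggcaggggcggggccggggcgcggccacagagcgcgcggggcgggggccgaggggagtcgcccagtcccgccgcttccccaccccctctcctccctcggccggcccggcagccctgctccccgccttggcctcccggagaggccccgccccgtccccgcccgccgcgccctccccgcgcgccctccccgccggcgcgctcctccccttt
PIM2: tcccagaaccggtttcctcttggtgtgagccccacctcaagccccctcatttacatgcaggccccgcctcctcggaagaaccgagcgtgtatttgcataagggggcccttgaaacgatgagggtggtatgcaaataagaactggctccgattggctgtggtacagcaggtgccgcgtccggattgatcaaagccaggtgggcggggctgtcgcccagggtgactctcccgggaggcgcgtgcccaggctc

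Neither PIM window holds the palindrome. A match is a description of letters and not of binding, and sites outside these windows were not searched. Whether matches go with the changes was not tested, and no window was found for SOCS2.

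Around the members, the rest of the pathway was read from 7 lists of genes. Cytokine receptors are where STAT signalling begins. Of 27 listed, 20 were tested, 1 passed with a higher value, 0 passed with a lower one and 19 did not pass, with 6 at an unadjusted p under 0.05 and a median log2 change of -0.05. The gene that passed was PRLR, the prolactin receptor, a classic activator of JAK2 and STAT5. PRLR sat at the lowest value on all 3 control arrays and at log2 2.85 to 4.32 on the 7l arrays. On these values, with control arrays at the floor, PRLR passed (limma adjusted p = 0.0257). With control values raised to the unexpressed level PRLR was at least 2.13-fold higher with 7l. It entered the test through its 7l arrays alone, so its call rests on the floor of the deposited values and is given as a description. With all values raised to the unexpressed level it did not pass (adjusted p = 0.169). The receptor groups did not overlap for 5 genes higher and 3 lower with 7l, against 15.1% and 13.8% of all genes.

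No cytokine ligand of 16 listed and 6 tested passed in limma, and 0 had an unadjusted p under 0.05 (median -0.14). OSM, which encodes oncostatin M, measured -0.18 ± 0.09. TSLP lay near background, at log2 0.00 to 3.05 with 7l and 3.17 to 4.02 in control cells, so the size of its difference is not set by these data. The difference was -1.85 ± 0.81 as reported, -0.81 with values raised to the unexpressed level and -0.45 with 16 added to every intensity. Of 14 kinases upstream of STATs, 10 were tested and 0 passed, with 2 at an unadjusted p under 0.05 and a median of -0.10. SRC measured -0.67 ± 0.16 (limma adjusted p = 0.102) and JAK1, a kinase of interferon and gp130 receptors, -0.24 ± 0.09 (adjusted p = 0.238), both with non-overlapping groups. FGFR1 lay under the filter, at log2 0.00 to 0.60 with 7l and 0.00 to 2.55 in control cells. Whether its probe lies in the part kept in the fusion was not examined, so expression of the fusion cannot be read from it.

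Among 8 further STATs and their partners 6 were tested and 0 passed (1 at an unadjusted p under 0.05, median -0.01). IRF9, a transcription factor of interferon signalling, measured -0.22 ± 0.08 and NMI, a STAT-interacting protein gene, 0.39 ± 0.22, or 0.17 without control replicate 2. Of 19 further negative regulators, which include the remaining SOCS genes, PIAS genes and phosphatases, 17 were tested and 0 passed (1 at an unadjusted p under 0.05, median 0.10). ELOB, the elongin B subunit of SOCS-box ubiquitin ligases, measured -0.23 ± 0.06 (limma adjusted p = 0.138) on its brightest probe and 0.04 with all its probes averaged. PTPN1, a phosphatase acting on JAK2, measured 0.21 ± 0.09.

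The list of other genes known as STAT3 or STAT5 targets held 25, of which 21 were tested, 1 rose, 1 fell and 19 did not pass. BIRC5, which encodes survivin, rose to log2 9.98 to 10.09 with 7l, against 9.42 to 9.48 in control cells, a change of 0.62 ± 0.07 (limma adjusted p = 0.0269). GFI1, a transcriptional repressor of blood cells, fell to log2 6.66 to 6.70 with 7l, against 7.21 to 7.53 in control cells, a change of -0.71 ± 0.10 (adjusted p = 0.0392). This list had a median log2 change of 0.26 and a median size of 0.41, and the groups did not overlap for 10 genes higher and 5 lower with 7l, beside 15.1% and 13.8% of all genes. At an unadjusted p under 0.05 were 12 of the 21, beside 20.5% of all genes, and the trended and robust prior called 8 higher and 3 lower, beside 7.21% and 6.59% of all genes. The lists were chosen with earlier results of these data known, so these counts are a description. Of 14 PIM kinase substrates, 13 were tested, 1 rose, 0 fell and 12 did not pass (1 at an unadjusted p under 0.05, median 0.10). That gene was CDKN1A, encoding p21, at log2 8.43 to 8.53 with 7l and 7.42 to 7.46 in control cells, a change of 1.04 ± 0.06 (adjusted p = 0.0117), or 0.52 ± 0.07 with its probes averaged (adjusted p = 0.0380).

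These 4 calls used all 6 arrays, and that of PRLR rests on the floor of the deposited values. Leaving out any 1 array ended those of BIRC5 and GFI1 (adjusted p 0.0706 to 0.146 over the 2 genes), and CDKN1A held without 7l replicate 1 alone (adjusted p = 0.0496). PRLR did not pass without any 1 control array and was under the filter without any 1 array of 7l.

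**Figure D4:**
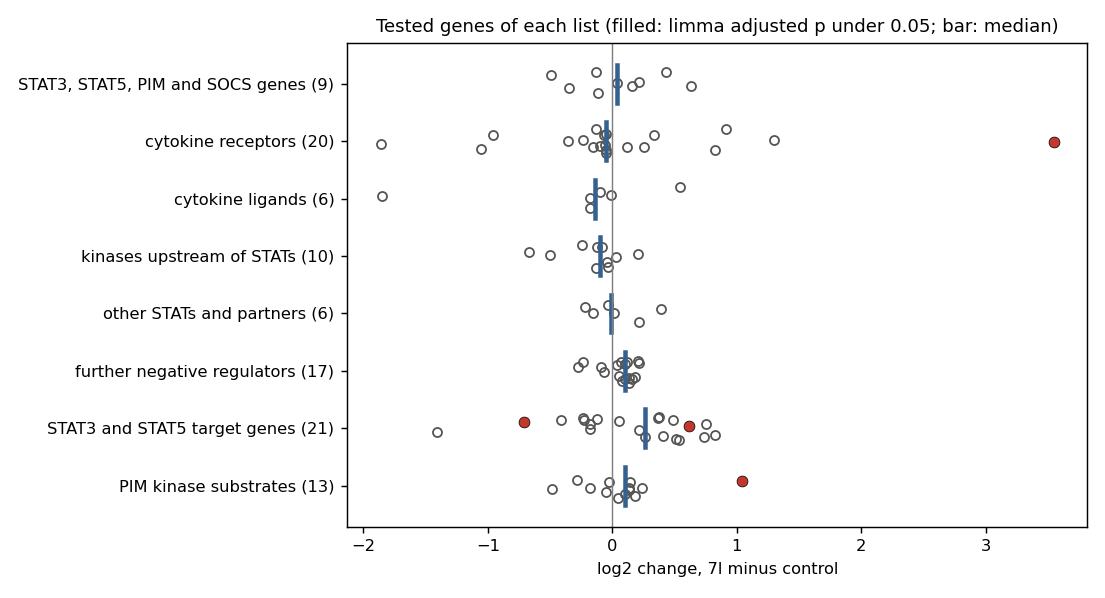
Log2 change, 7l minus control (x axis), of every tested gene of the 10-gene set and of the 7 pathway lists (rows, number tested in brackets). Filled red points passed an adjusted p under 0.05 and blue bars are medians. The 4 filled points are PRLR, BIRC5, GFI1 and CDKN1A, and the top row, STAT3, STAT5, PIM and SOCS genes, holds none. The point of PRLR rests on the floor of the deposited values.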

How the data were processed

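RNA of KG1a cells was measured on 1-colour Illumina arrays, 3 of 7l-treated and 3 of control cells, grouped by their titles. The authors deposited linear probe intensity values with a floor of 1, and the software and normalization used are not stated in the labels. Sorted, the values of the 6 arrays coincide (to 0.0001 of their size) for 97.8% of ranks, the form quantile normalization gives, so a global shift cannot be seen. Intensities were log2 transformed without further scaling. Genes were represented by their brightest probe with 1 symbol and tested if that probe's mean was over the median probe mean (log2 1.76). limma 3.58.1 in R 4.3.3 (lmFit, eBayes with the default prior of 1.24 degrees of freedom, 4 residual degrees of freedom, two-sided, Benjamini-Hochberg) gave changes as 7l minus control. A second fit took all 23661 probes above that filter. The fit was run on simulated data as a check of the code alone, and no result here draws on that run. The named genes are the members, up to 4 called genes of each list or its 2 with the smallest p, the first of each marker list (1 is not reported here), and the 3 genes nearest to the member with the smallest p, and FGFR1, SPN, ANPEP, PTPRC, MPO, KIT, PROM1, NKG7 and CD2 were named after their values were seen. Members and lists were chosen with earlier results of these data known. Figures used Python 3.11.15 and matplotlib 3.10.9.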

Additional observations from a re-analysis of the deposited data

How the results depend on the processing

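The deposited values already have the form of quantile normalization, so applying it again could not move a call. Cyclic loess moved no call of a member. The number of genes called was 293 as reported, 734 with an offset of 16, 480 with the stricter filter, 487 with values raised to the unexpressed level and 1702 with the trended and robust prior. It was 7 to 28 without any 1 array. Member genes called numbered 1 with the offset, 1 with the stricter filter (PIM1 at 0.42 and 0.43) and 3 with the trended prior (PIM1 0.43, PIM2 -0.35, SOCS2 -0.49), where 3 member probes also passed. Without any 1 array 0 member genes and 0 member probes passed in limma, with 2 to 3 genes and 1 to 4 probes at an unadjusted p under 0.05. Without any 1 array of 7l, 2014 to 2216 of the 12319 to 12348 genes tested were at that level. The share of all probes at that level was not counted. Pathway list genes called numbered 4 as reported, 7 with the offset, 20 with the trended prior and 0 to 1 without any 1 array. Estimates near 0 changed sign when 1 array was left out: STAT3 ranged from -0.012 to 0.12 and STAT5B from -0.21 to 0.0087. ELOB turned to 0.041 with probes averaged. The cause of these shifts was not tested. With the replicate number as a block, 0 genes, 0 members and 0 list genes were called in limma, with 2107 genes, 2 members and 17 list genes at an unadjusted p under 0.05. Deviations of same-numbered arrays correlated at -0.023, -0.0027 and 0.0043, so no effect shared by a number was seen. Such values cannot exclude that same-numbered arrays were handled together. Of the 234 further values of named non-members, 199 kept their direction and their side of the threshold. The number of arrays limits the precision, and PIM3 and the dim SOCS3 probe lie too near background to be read.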
